A study of Mus musculus with 36 samples.

Results

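Transcript levels in the tibia of base-edited progeria mice were compared with those of wild-type mice, to describe what still differed from wild-type after treatment. The comparison holds 24 of the series' 36 libraries, chosen by their labels alone: 12 from ABE-treated LMNA G/G mice and 12 from wild-type mice. Each group had 6 males and 6 females of 6 months, and each library was labelled as 1 mouse. LMNA G/G (LMNAG608G/G608G) mice are homozygous for a human LMNA transgene with the progeria variant and keep both mouse Lmna alleles. The treated mice received ABE, an adenine base editor delivered as a pair of AAV9 vectors, by retro-orbital injection at P14, 14 days after birth. Wild-type mice carried no transgene and were labelled NT. The remaining 12 libraries, from LMNA G/G mice given saline by the same route at P14, are set beside the comparison. The design had no wild-type mice with vector and no LMNA G/G mice with an empty vector, so genotype, injection and vector cannot be told apart in the difference from wild-type. The mice were described as littermates, but the labels give no litter, so litter is not in the model. The bones had their epiphyses and marrow removed before RNA was extracted, and RNA from any cell left on or in the shaft was measured together. In such bulk samples, fewer cells of a type and less RNA per cell cannot be told apart.

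In Hutchinson-Gilford progeria, a cryptic splice site in LMNA yields progerin, a farnesylated lamin A that stays in the nuclear membrane, and the base editor rewrites the mutant base in the cells it reaches. Long bone is kept up by 3 cell types. Osteoblasts secrete type I collagen and mineral-binding proteins, osteocytes are former osteoblasts buried in the matrix that sense load and release sclerostin and other regulators, and osteoclasts are fused cells of the monocyte lineage that dissolve mineral with acid and digest collagen with cathepsin K. Marrow blood cells, muscle and tendon attached to the shaft, and cartilage at its ends contribute RNA as far as dissection leaves them.

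Values are TPM, reads per gene corrected for its length and for the library's total, rescaled between libraries by their median ratio over 22771 genes, and are called scaled TPM. Of 56246 genes in the table, 48911 were longer than the length minimum, and the 13274 of these with a mean of at least 0.5 scaled TPM were tested. Reads on genes ran from 48064068 to 98760210 in ABE-treated libraries, 63824773 to 86981913 in wild-type and 63764802 to 116206662 in saline-treated libraries. One library, ABE replicate 1 from a female, stood apart, with a scale factor of 0.22 where the other 35 lay between 0.61 and 1.56. It also had the highest muscle and the lowest erythroid level of all 36 libraries. Mouse Lmna lay at 7.47 to 11.8 (median 9.61) scaled TPM in wild-type and 8.78 to 15.9 (median 11.1) in ABE-treated libraries, a log2 difference of 0.23 (SE 0.075, adjusted p = 0.0072). The human transgene has no row in this mouse table, so the edited gene itself was not analysed here and Lmna does not check the labels. Reads were aligned to the mouse genome, and whether transgene reads were counted on Lmna was not tested.

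Most genes differed between ABE-treated and wild-type bone, mostly by little. Of the 13274 genes, 10240 (77.1%) passed limma's test after Benjamini-Hochberg adjustment, with an adjusted p under 0.05, of which 5243 (39.5%) were higher and 4997 (37.6%) lower in ABE-treated bone. A difference of at least 2-fold was present as well in 868 higher genes (6.54%) and 301 lower ones (2.27%). The 12 ABE-treated libraries lay entirely above the 12 wild-type libraries for 611 genes (4.60%) and entirely below them for 662 (4.99%). Against the same wild-type libraries, saline-treated bone had 4210 genes higher (31.7%) and 3505 lower (26.4%), and ABE-treated against saline-treated bone had 3614 higher (27.2%) and 3932 lower (29.6%). These 3 comparisons share libraries. Without ABE replicate 1, 10072 genes were called in ABE-treated against wild-type bone. The direction of a small difference depends on the rescaling: in the TPM as deposited the median of all genes tested moved by -0.40 (log2), and 1387 genes were higher and 8226 lower, so differences here are relative to the typical gene.

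Skeletal muscle RNA differed between the 3 groups, and its level is given beside the other results. The summed level of 32 muscle contractile genes was 255 to 3624 scaled TPM in wild-type, 427 to 9335 in saline-treated and 1308 to 15245 in ABE-treated libraries. All 32 were higher in ABE-treated than in wild-type bone, with a median log2 difference of 2.496 where the median of all genes tested was 0.0015. Acta1, skeletal alpha-actin and the most abundant of them, lay at 53.3 to 872 (median 286) scaled TPM in wild-type, 88.7 to 2059.8 (median 650.1) in saline-treated and 284 to 3740.4 (median 1731) in ABE-treated libraries. The ranges overlapped, and the ABE-treated median was above the highest wild-type library. Because this level differed so much, each comparison was also fitted with the mean log2 level of the muscle list as a covariate. That level separates the groups in part (mean log2 of 2.27 to 5.78 in wild-type and 4.46 to 7.63 in ABE-treated libraries), so the covariate also takes up part of the group difference itself. With it, 4427 genes were called, 2452 higher (18.5%) and 1975 lower (14.9%). These are the shares to set beside counts with the muscle level held. Counts against wild-type without it are to be set beside 39.5% higher and 37.6% lower. The muscle list also differed between ABE-treated and saline-treated bone, with 30 of 32 genes higher (median 1.22). With the covariate, 637 genes were called between these 2 groups, where 7546 were without it. Gene and list differences from saline-treated bone are given without the covariate.

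**Figure D1:**
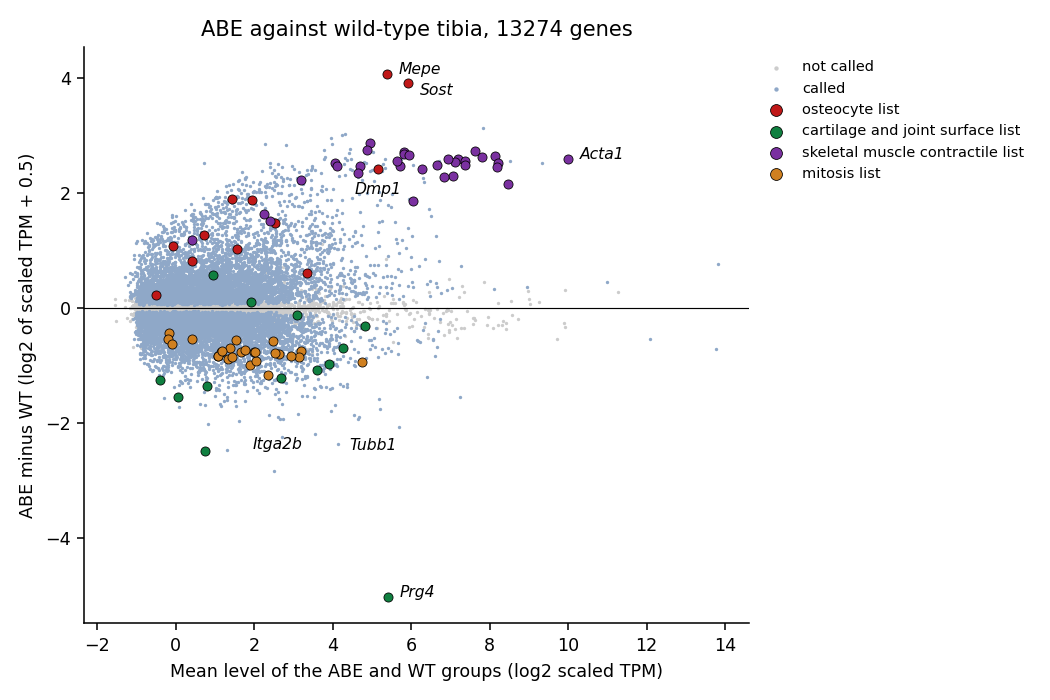
Difference between ABE-treated and wild-type tibia (vertical axis, log2) against the mean level of both groups (horizontal axis, log2 scaled TPM), 1 point for each of 13274 genes; blue points have an adjusted p under 0.05, and 4 gene lists are coloured. Mepe and Sost lie highest and Prg4 lowest, the muscle list forms a band near 2.496, and the mitosis genes lie below 0.

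Osteocyte transcripts stood above wild-type after treatment. Of 12 osteocyte genes tested, 11 were higher and 0 lower in ABE-treated bone, where 39.5% and 37.6% of all genes were. The osteocyte median log2 difference was 1.37, and 7 lay above wild-type without overlap, against 4.60% of all genes. The same list had a median of 1.396 in saline-treated against wild-type bone, with 11 genes higher, and of -0.018 in ABE-treated against saline-treated bone, with 0 higher and 1 lower. The osteocyte difference from wild-type was nearly as large with the muscle level held, at 1.23 with 11 genes higher and 0 lower. The 2 genes with the largest rise of all those without overlap are both osteocyte products, Mepe, a matrix phosphoglycoprotein cleaved to a mineral-binding peptide, and Sost, which encodes sclerostin, a secreted inhibitor of WNT signalling and of bone formation. Their promoter windows, from 250 bases before to 50 bases after the start site, are shown because these genes carry the largest differences. They were taken from RefSeq (GRCm38.p6; Mepe at chr5:104325079-104325378, plus strand; Sost at chr11:101966966-101967265, minus strand) and are written 5′ to 3′ along the gene. Capitals mark TATAAA or TGTGGT, a core of RUNX sites, on either strand.
Mepe: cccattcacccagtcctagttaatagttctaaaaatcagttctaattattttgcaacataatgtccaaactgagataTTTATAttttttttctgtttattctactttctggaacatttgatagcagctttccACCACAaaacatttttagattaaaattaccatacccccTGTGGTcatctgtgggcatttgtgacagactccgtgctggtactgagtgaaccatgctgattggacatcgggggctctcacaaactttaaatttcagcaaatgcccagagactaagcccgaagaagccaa
Sost: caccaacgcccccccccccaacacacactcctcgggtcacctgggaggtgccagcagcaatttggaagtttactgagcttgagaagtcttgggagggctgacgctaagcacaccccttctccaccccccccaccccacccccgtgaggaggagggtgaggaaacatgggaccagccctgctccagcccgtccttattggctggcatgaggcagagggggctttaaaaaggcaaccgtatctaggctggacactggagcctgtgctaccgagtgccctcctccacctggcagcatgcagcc
The Mepe window holds 1 TATAAA and 2 TGTGGT, and the Sost window holds neither. Among the 10 osteocyte promoters found, 2 (20%) held TATAAA and 2 (20%) held TGTGGT, against 14.2% and 16.9% of all 27025 promoters.

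Mepe (ENSMUSG00000053863.3, GRCm38 chromosome 5, 104325329 to 104338611) lay at 1.72 to 9.12 (median 3.34) scaled TPM in wild-type, 53.6 to 173 (median 138) in saline-treated and 45.5 to 109.9 (median 81.3) in ABE-treated libraries. Every ABE-treated library was above every wild-type library, with a log2 difference of 4.07 (SE 0.23, adjusted p = 1.4e-15). ABE-treated bone was below saline-treated bone for this gene, with a log2 difference of -0.68 (SE 0.23, adjusted p = 0.011), and it was the only osteocyte gene that passed the test between these groups.

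Sost (ENSMUSG00000001494.6, GRCm38 chromosome 11, 101962458 to 101967015) lay at 2.61 to 15.9 (median 6.89) scaled TPM in wild-type, 66.8 to 199 (median 115) in saline-treated and 81.2 to 140.2 (median 122) in ABE-treated libraries. The lowest ABE-treated library was above the highest wild-type one, and the log2 difference was 3.902 (SE 0.23, adjusted p = 4.4e-15). Between ABE-treated and saline-treated bone the difference was -0.056 (95% interval -0.52 to 0.40), and the 2 sets of libraries overlapped.

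Dmp1, a matrix phosphoprotein of osteocytes that controls phosphate and mineralization, lay at 3.96 to 22.1 (median 9.93) scaled TPM in wild-type, 41.9 to 106 (median 81.02) in saline-treated and 35.4 to 83.1 (median 59.7) in ABE-treated libraries. The difference from wild-type was 2.42 (SE 0.21, adjusted p = 2.3e-11) with no overlap, and that from saline-treated bone was -0.37 (95% interval -0.79 to 0.059). Phex, an osteocyte membrane endopeptidase needed for normal phosphate balance, had medians of 2.599, 9.697 and 9.07 scaled TPM in the same order and a difference from wild-type of 1.47 (SE 0.15, adjusted p = 9.2e-10). Irx5, a homeobox factor, had medians of 1.18, 6.07 and 6.49 and a difference of 1.87 (SE 0.15, adjusted p = 5.2e-12). The hyaluronan receptor Cd44, expressed by many cell types, differed less, by 0.61 (SE 0.09, adjusted p = 4.3e-07).

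Mepe and Dmp1 lie in a cluster of mineralized-matrix genes on chromosome 5 with Ibsp and Spp1, which were singled out here after their values were seen. Ibsp, bone sialoprotein (ENSMUSG00000029306.8, GRCm38 chromosome 5, 104299171 to 104311469), lay at 17.6 to 58.6 (median 25.3) scaled TPM in wild-type and 30.96 to 89.02 (median 49.5) in ABE-treated libraries, a log2 difference of 0.90 (SE 0.17, adjusted p = 2.1e-05). Spp1, osteopontin (ENSMUSG00000029304.14, GRCm38 chromosome 5, 104435118 to 104441050), lay at 37.2 to 87.6 (median 59.1) and 60.1 to 223 (median 139), a difference of 1.25 (SE 0.19, adjusted p = 6.9e-07). Both groups overlapped for these 2 genes, and both genes were lower in ABE-treated than in saline-treated bone, with log2 differences of -0.45 (adjusted p = 0.027) for Ibsp and -0.86 (adjusted p = 0.00094) for Spp1.

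**Figure D2:**
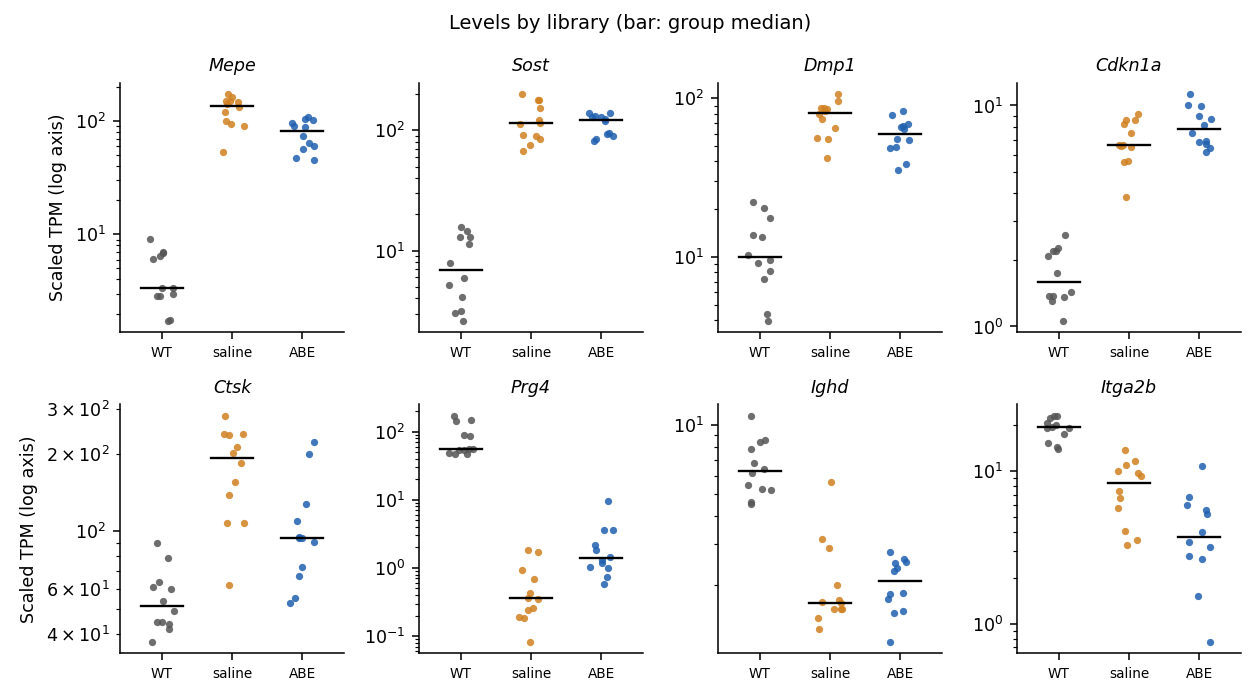
Levels of 8 genes in each library (vertical log axis, scaled TPM) for 12 wild-type (grey), 12 saline-treated (orange) and 12 ABE-treated (blue) mice; the bar is the group median. Mepe, Sost, Dmp1 and Cdkn1a in ABE-treated mice lie above every wild-type library, Prg4, Ighd and Itga2b lie below, and Ctsk overlaps.

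Osteoblast transcripts differed less, and the most abundant ones did not pass the test. Of 20 genes of osteoblasts and bone matrix, 13 were higher and 0 lower than in wild-type (median 0.51), where 39.5% and 37.6% of all genes were. With the muscle level held 5 were higher, against 18.5% of all genes. Col1a1, the main chain of type I collagen, lay at 478 to 1976 (median 963) scaled TPM in wild-type and 387 to 1462 (median 804) in ABE-treated libraries, a log2 difference of -0.25 (95% interval -0.78 to 0.27, adjusted p = 0.37). Bglap, osteocalcin, which has near-identical copies that can share its reads, had medians of 124 and 163 and a difference of 0.28 (95% interval -0.30 to 0.86). Neither interval reached a 2-fold difference. Of the lineage factors, Sp7 (osterix) was higher, at medians of 4.58 and 8.01 scaled TPM and a log2 difference of 0.76 (SE 0.14, adjusted p = 1.2e-05), and Runx2 differed by 0.19 (95% interval 0.0015 to 0.38, adjusted p = 0.062).

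Regulators of mineral and collagen followed. Of 11 mineralization regulators, 8 were higher and 1 lower, and 5 higher and 1 lower with the muscle level held. For the lists of this paragraph, 39.5% of all genes were higher and 37.6% lower. With the muscle level held these shares were 18.5% and 14.9%. Ank, a pyrophosphate and ATP exporter that limits mineral growth, lay at 6.13 to 10.3 (median 7.69) scaled TPM in wild-type and 11.3 to 27.5 (median 18.6) in ABE-treated libraries without overlap, a log2 difference of 1.12 (SE 0.12, adjusted p = 7e-10). Alpl, the alkaline phosphatase that removes pyrophosphate, differed by 0.67 (SE 0.15, adjusted p = 0.00016), with overlapping groups. Of 19 genes that fold and modify collagen, 15 were higher and 0 lower (median 0.38), and 7 were higher with the muscle level held. An example was Serpinh1, the collagen chaperone HSP47, at 0.58 (SE 0.16, adjusted p = 0.0018). Among 11 matrix proteases and their inhibitors, 10 were higher (median 0.77), and 3 were higher with the muscle level held (median 0.35). Mmp13, a collagenase of bone and hypertrophic cartilage, lay at 7.86 to 27.2 (median 14.6) scaled TPM in wild-type, 23.2 to 88.5 (median 63.4) in saline-treated and 11.001 to 65.9 (median 34.4) in ABE-treated libraries, with the ABE-treated group 1.15 above wild-type (adjusted p = 3.1e-05) and -0.84 from saline-treated bone (adjusted p = 0.003) on the log2 scale.

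Osteoclast genes did not lie to 1 side of wild-type. Of 17 tested, 6 were higher and 6 lower than in wild-type (median 0.07), near the shares of all genes tested (39.5% and 37.6%). Against saline-treated bone, without the muscle covariate, 0 were higher and 13 lower, where 27.2% and 29.6% of all genes were. In the fit with the muscle covariate 6 were higher and 3 lower than in wild-type, where 18.5% and 14.9% of all genes were. Ctsk, cathepsin K, lay at 37.1 to 90.2 (median 51.3) scaled TPM in wild-type, 62.1 to 282 (median 193) in saline-treated and 52.7 to 223 (median 93.99) in ABE-treated libraries. It was above wild-type by a log2 difference of 0.84 (SE 0.23, adjusted p = 0.0012) and below saline-treated bone with -0.78 (SE 0.23, adjusted p = 0.0049), and all 3 ranges overlapped. Acp5, tartrate-resistant acid phosphatase, showed the same order, with medians of 37.96, 94.1 and 56.3 scaled TPM and a difference from wild-type of 0.65 (SE 0.22, adjusted p = 0.01). Mmp9, a gelatinase that neutrophils express too, did not pass the test against wild-type (0.11, 95% interval -0.23 to 0.45). The lower members included Car2, the carbonic anhydrase that supplies acid and is abundant in red cells, at -0.69 (SE 0.25, adjusted p = 0.013), and with the muscle level held its difference was 0.10.

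All 4 genes that signal to osteoclasts were above wild-type, and 2 with the muscle level held. Tnfsf11 (RANKL), which drives osteoclast formation, lay at 0.251 to 0.645 (median 0.418) scaled TPM in wild-type, 0.672 to 1.59 (median 0.897) in saline-treated and 0.303 to 1.14 (median 0.5498) in ABE-treated libraries, and the ABE-treated group was 0.26 (SE 0.092, adjusted p = 0.012) from wild-type and -0.41 (SE 0.092, adjusted p = 0.001) from saline-treated bone on the log2 scale. Its decoy receptor Tnfrsf11b (osteoprotegerin) lay at 0.361 to 1.06 (median 0.768), 1.104 to 2.96 (median 2.44) and 1.61 to 3.76 (median 2.42) in the same order. Its ABE-treated libraries were all above the wild-type ones (1.27, SE 0.12, adjusted p = 6.1e-11), and the difference from saline-treated bone was 0.092 (95% interval -0.14 to 0.33). The difference between these 2 genes in this was not tested. The wild-type median of Tnfsf11 was under the filter of 0.5 scaled TPM, which was set on the mean of all 36 libraries. Tnfsf11 was therefore tested through its level in LMNA G/G libraries, and its call above wild-type is no separate support. Its values also lie near the 0.5 added before the log2.

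The largest fall was in a joint gene. Superficial chondrocytes and synovial cells make lubricin, the product of Prg4 (ENSMUSG00000006014.16, GRCm38 chromosome 1, 150449412 to 150466165). Its transcript lay at 46.2 to 171 (median 55.9) scaled TPM in wild-type, 0.0814 to 1.85 (median 0.358) in saline-treated and 0.574 to 9.74 (median 1.38) in ABE-treated libraries. The highest ABE-treated library was below the lowest wild-type one, with a log2 difference of -5.02 (SE 0.31, adjusted p = 1e-14), while ABE-treated bone was above saline-treated bone by 1.202 (SE 0.31, adjusted p = 0.0021). Of 13 cartilage and joint genes tested of 23 listed, 9 were lower and 1 higher than in wild-type (median -1.08), and against saline-treated bone 6 were higher and 0 lower. With the muscle level held the median was -1.43 with 0 genes higher and 8 lower. Comp, a cartilage and tendon matrix protein, had medians of 18.5, 3.26 and 7.43 scaled TPM in the wild-type, saline and ABE groups and differed from wild-type by -0.98 (SE 0.30, adjusted p = 0.0043). Col2a1, cartilage collagen, differed by -0.70 (SE 0.28, adjusted p = 0.023), a call lost without ABE replicate 6 (-0.60) or wild-type replicate 9 (-0.59), and Col11a2 by -0.32 (95% interval -0.79 to 0.15). The epiphyses had been cut off, so these levels also depend on how much of each bone's end was left, which was not measured.

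Genes of muscle calcium handling and of energy metabolism were higher as well. All 14 genes of sarcoplasmic calcium handling were higher (median 2.37), led in level by Atp2a1, the calcium pump of fast fibres, at medians of 192 and 1081 scaled TPM. So were 39 of 40 nuclear genes of oxidative phosphorylation (median 1.198) and all 14 of fatty acid oxidation (median 0.86). With the muscle level held these medians were 0.095, 0.35 and 0.26, with 2, 18 and 1 genes called higher. Atp5a1, the alpha subunit of ATP synthase, lay at 28.9 to 49.1 (median 35.1) scaled TPM in wild-type and 45.2 to 179.6 (median 92.2) in ABE-treated libraries (1.24, SE 0.17, adjusted p = 1.5e-07), and with the muscle level held its difference was 0.38 (adjusted p = 0.049). The 13 protein-coding genes of the mitochondrial genome are listed at 0 in every library. Trim63, the muscle ubiquitin ligase MuRF1, was higher by 2.01 (SE 0.29, adjusted p = 3.2e-07), and by 0.37 (adjusted p = 0.13) with the muscle level held.

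Tendon and fibrous tissue behaved likewise. Of 15 genes, 10 were higher and 1 lower (median 0.72), where 39.5% and 37.6% of all genes were. With the muscle level held 2 were higher and 2 lower, where 18.5% and 14.9% of all genes were. Biglycan (Bgn), a proteoglycan of bone and tendon, was higher by 0.72 (SE 0.14, adjusted p = 3.3e-05), and fibromodulin (Fmod), a collagen-binding proteoglycan of tendon, by 0.96 (SE 0.37, adjusted p = 0.018). With the muscle level held Bgn remained higher (0.62, adjusted p = 0.022) and Fmod was at -0.67 (adjusted p = 0.17). Of 17 endothelial genes, 10 were higher (median 0.19), and 4 with the muscle level held (median 0.077), where 18.5% of all genes were. The higher genes included Cdh5, the junction protein VE-cadherin (0.79, SE 0.11, adjusted p = 2.7e-07), and the 1 lower gene was Vwf, von Willebrand factor, which platelets store too (-1.26, SE 0.13, adjusted p = 5.5e-10).

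**Figure D3:**
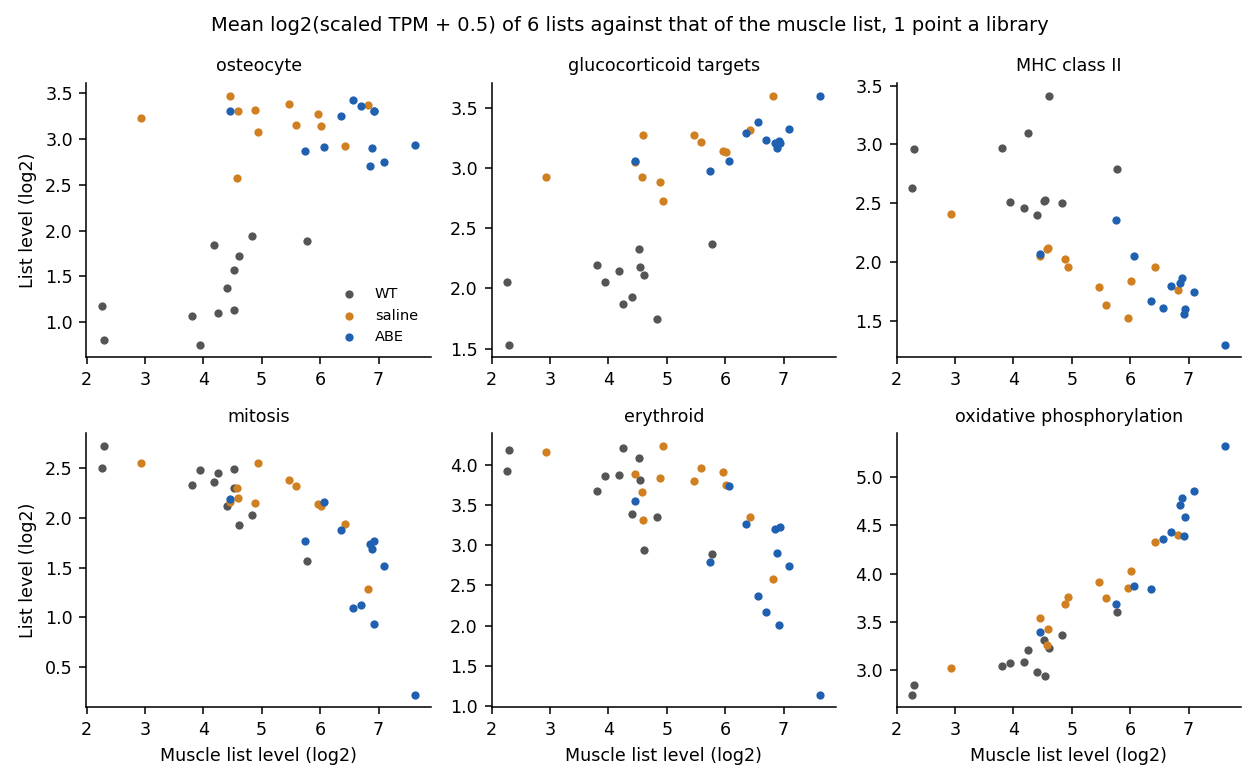
Mean log2 level of 6 gene lists (vertical axes) against that of the muscle list (horizontal axes) in 36 libraries, coloured by group. At a like muscle level the ABE-treated and saline-treated libraries sit above wild-type for the osteocyte and glucocorticoid target lists, while the mitosis, erythroid and oxidative phosphorylation lists of all 3 groups run along with the muscle level.

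Genes of dividing cells were lower throughout. All 26 mitosis genes (median -0.77) and all 30 DNA replication genes (median -0.69) were lower in ABE-treated than in wild-type bone, and all of both lists were lower than in saline-treated bone (medians -0.69 and -0.58). Saline-treated against wild-type bone had 1 and 2 called lower. The shares of all genes lower in these 3 comparisons were 37.6%, 29.6% and 26.4%. Mki67, the proliferation marker Ki-67, lay at 18.1 to 49.2 (median 35.7) scaled TPM in wild-type, 13.9 to 46.8 (median 33.4) in saline-treated and 4.29 to 34.8 (median 19.4) in ABE-treated libraries, a log2 difference from wild-type of -0.94 (SE 0.23, adjusted p = 0.00044). The groups overlapped, as they did for each gene of both lists. With the muscle level held, the medians were -0.054 and -0.15, with 0 and 2 genes called lower. Since the mitosis genes moved together, the promoters of the named members Cdc20, an activator of the anaphase ubiquitin ligase, and Ccnb2, cyclin B2, are shown (RefSeq, GRCm38.p6; Cdc20 at chr4:118437294-118437593, minus strand; Ccnb2 at chr9:70421505-70421804, minus strand). Capitals mark TTTGAA, the core of the cell cycle homology region, and CCAAT, the NF-Y core, on either strand.
Cdc20: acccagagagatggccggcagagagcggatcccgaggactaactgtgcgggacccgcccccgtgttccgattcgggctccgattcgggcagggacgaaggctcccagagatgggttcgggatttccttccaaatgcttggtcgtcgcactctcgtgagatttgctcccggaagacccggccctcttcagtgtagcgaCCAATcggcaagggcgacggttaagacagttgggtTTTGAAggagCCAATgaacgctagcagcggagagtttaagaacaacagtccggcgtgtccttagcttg
Ccnb2: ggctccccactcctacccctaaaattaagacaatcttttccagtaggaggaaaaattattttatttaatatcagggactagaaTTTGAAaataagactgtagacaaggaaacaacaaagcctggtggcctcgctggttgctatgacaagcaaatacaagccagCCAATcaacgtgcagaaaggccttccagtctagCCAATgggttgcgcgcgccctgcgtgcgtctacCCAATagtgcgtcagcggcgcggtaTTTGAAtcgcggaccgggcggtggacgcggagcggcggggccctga
TTTGAA was present in 16 of 22 mitosis promoters (72.7%) and 3 of 26 replication promoters (11.5%), against 18.1% of all 27025 promoters. CCAAT was present in 18 (81.8%) and 15 (57.7%), against 37.9%. Whether either motif bears on the lower levels was not tested. Cdc20 differed from wild-type by -0.84 (SE 0.19, adjusted p = 0.00019) and Ccnb2 by -0.76 (SE 0.21, adjusted p = 0.0015).

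Red cell genes moved with the dividing cells. All 15 erythroid genes tested were lower than in wild-type (median -0.995), and with the muscle level held none passed (median -0.20). Slc4a1, the red cell anion exchanger band 3, lay at 56.1 to 164 (median 122) scaled TPM in wild-type, 43.9 to 161 (median 118) in saline-treated and 9.85 to 122 (median 49.6) in ABE-treated libraries (-1.21, SE 0.27, adjusted p = 0.00013), the lowest value being in ABE replicate 1. The median of the list was -0.82 without that library.

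Other than Prg4, the largest falls without overlap included Tubb1, platelet beta-tubulin, Itga2b, the platelet fibrinogen receptor chain, Treml1, a platelet granule receptor, and Alox12, platelet lipoxygenase. Itga2b lay at 14.03 to 23.1 (median 19.3) scaled TPM in wild-type, 3.28 to 13.7 (median 8.31) in saline-treated and 0.757 to 10.9 (median 3.698) in ABE-treated libraries. Saline-treated bone was below wild-type for it (-1.303, SE 0.25, adjusted p = 4.9e-05) and ABE-treated bone was lower again (-0.89, SE 0.25, adjusted p = 0.0041), giving -2.19 (SE 0.25, adjusted p = 4.9e-09) against wild-type. Tubb1 lay at 21.6 to 37.9 (median 29.3) and 0.772 to 16.4 (median 4.65) in wild-type and ABE-treated libraries, a difference of -2.37 (SE 0.30, adjusted p = 2.7e-08). Treml1 differed by -1.93 and Alox12 by -1.89. These 4 were chosen for the size of their fall, and no list of such genes was tested. In the fit with the muscle covariate Itga2b was at -1.33 (adjusted p = 0.0014) and Tubb1 at -1.38 (adjusted p = 0.0049), with adjusted p = 0.019 for Treml1 and 0.0015 for Alox12.

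B cell genes were lower in both groups of LMNA G/G mice. Of 18 tested, 15 were lower in ABE-treated and 16 in saline-treated than in wild-type bone (medians -0.69 and -0.70), and with the muscle level held 7 were lower in ABE-treated bone. Ighd, the heavy chain of IgD on mature B cells, lay at 4.52 to 10.95 (median 6.302) scaled TPM in wild-type, 1.28 to 5.602 (median 1.67) in saline-treated and 1.12 to 2.77 (median 2.07) in ABE-treated libraries. It did not overlap between ABE-treated and wild-type bone (-1.48, SE 0.16, adjusted p = 2.7e-09), and it remained lower with the muscle level held (-0.93, adjusted p = 0.00082). Cd79a, a signalling chain of the antigen receptor in B cells of every stage, overlapped and differed less (-0.65, SE 0.19, adjusted p = 0.0029).

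All 8 MHC class II genes, which present antigen on B cells, macrophages and dendritic cells, were lower (median -0.89), and 7 were lower with the muscle level held. H2-Aa lay at 5.38 to 15.6 (median 6.79) scaled TPM in wild-type, 2.796 to 6.59 (median 4.75) in saline-treated and 2.51 to 6.83 (median 3.96) in ABE-treated libraries (-0.91, SE 0.14, adjusted p = 1.3e-06). Of 13 macrophage genes 10 were lower (median -0.60), and 3 were lower with the muscle level held (median -0.17). Examples were the complement component C1qa (-0.99, SE 0.18, adjusted p = 9e-06), while the more widely expressed lysozyme gene Lyz2 was at -0.36 (95% interval -0.77 to 0.063). Of 12 T and NK cell genes only 5 were expressed enough to be tested, and 4 of these were lower, or 1 with the muscle level held. Neutrophil genes lay on both sides of wild-type. Of 18, 6 were lower and 0 higher (median -0.27), where 37.6% of all genes tested were lower. With the muscle level held 10 were higher and 0 lower (median 0.63), so their direction depended on that choice. Against saline-treated bone 0 were higher and 16 lower (median -0.67). The median difference from wild-type was -0.68 in males and 0.11 in females, and 0 of the 18 passed the test of the sex difference. S100a9, calgranulin B, lay at 269 to 913 (median 544) scaled TPM in wild-type and 122 to 1608 (median 639) in ABE-treated libraries, a difference of 0.099 (95% interval -0.47 to 0.67). Among 14 adipocyte genes 7 were lower and 4 higher, and 0 higher and 6 lower with the muscle level held. Cfd, the secreted protease adipsin, had medians of 34.3, 27.9 and 6.97 scaled TPM in the wild-type, saline and ABE groups (-1.86, SE 0.43, adjusted p = 0.00023).

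Targets of glucocorticoid signalling were above wild-type with or without the muscle level. Of 13 genes, 12 were higher (median 1.15), where 39.5% of all genes were. Of the 13, 7 lay above wild-type without overlap, against 4.60% of all genes. With the muscle level held 11 were higher (median 0.87), against 18.5% of all genes. Saline-treated against wild-type bone had 13 higher (median 0.98). Ddit4, an inhibitor of mTORC1, lay at 2.45 to 10.1 (median 5.66) scaled TPM in wild-type, 9.23 to 36.96 (median 25.4) in saline-treated and 16.2 to 31.1 (median 22.9) in ABE-treated libraries (1.87, SE 0.18, adjusted p = 1.4e-10). Its difference from saline-treated bone was -0.078 (95% interval -0.44 to 0.28). Mt2, a zinc-binding metallothionein, lay at 4.203 to 7.16 (median 5.81), 15.6 to 32.4 (median 24.5) and 7.57 to 23.3 (median 11.9), with every ABE-treated library above wild-type (1.03, SE 0.12, adjusted p = 1.2e-08) and the group below saline-treated bone (-0.96, SE 0.12, adjusted p = 2.6e-05). The list holds genes that respond to other signals as well, and corticosterone was not measured in these files. Nfkbia was the member that did not pass (0.14, 95% interval -0.016 to 0.30). Per1, which is also a clock gene, was higher by 1.15 (SE 0.17, adjusted p = 4.1e-07). Of 15 clock genes 13 were higher and 0 lower, and 6 were higher with the muscle level held, and the hour of collection is not given in the sources used here.

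Growth arrest and stress genes were higher in part. Cdkn1a, the cell cycle inhibitor p21, lay at 1.06 to 2.59 (median 1.59) scaled TPM in wild-type, 3.84 to 9.19 (median 6.61) in saline-treated and 6.18 to 11.2 (median 7.83) in ABE-treated libraries. Its groups did not overlap (1.95, SE 0.12, adjusted p = 1.7e-14), and the difference from saline-treated bone was 0.22 (95% interval -0.025 to 0.47). Of 14 p53 targets, however, 9 were higher and 2 lower (median 0.33), where 39.5% and 37.6% of all genes were. With the muscle level held 7 were higher and 0 lower, where 18.5% and 14.9% of all genes were. Phlda3, a p53-induced repressor of AKT, had medians of 5.36 and 27.3 scaled TPM (2.06, SE 0.25, adjusted p = 1.8e-08, and 0.56 with the muscle level held), while Btg2 was lower (-0.55, SE 0.11, adjusted p = 6.8e-05). Of 13 genes of senescence and its secreted factors, 4 were expressed enough to be tested and 4 were higher, with the muscle level held as without. These 4 include Mmp13, counted above among the matrix proteases, and a gene of the TGF-beta list described below. They are therefore not separate from those lists. Interferon-stimulated genes were lower rather than higher, 10 of 17 against 2, where 37.6% and 39.5% of all genes were. With the muscle level held 0 were lower and 4 higher, where 14.9% and 18.5% of all genes were. Of 19 immediate early genes, which cells switch on within minutes of a stimulus, 15 were higher and 2 lower, and 11 higher and 0 lower with the muscle level held. The orphan receptor Nr4a1 lay at 1.101 to 3.86 (median 2.43) in wild-type and 4.34 to 31.6 (median 11.2) in ABE-treated libraries without overlap (2.13, SE 0.25, adjusted p = 9.4e-09), and Klf2, a factor of endothelium, was at 0.10 (95% interval -0.034 to 0.24).

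Heat shock genes were higher, 14 of 16 (median 0.71), where 39.5% of all genes were. With the muscle level held 10 were higher (median 0.35), against 18.5% of all genes. Hspa8, the constitutive chaperone HSC70, lay at 21.2 to 33.1 (median 26.6) scaled TPM in wild-type, 31.3 to 50.03 (median 39.02) in saline-treated and 35.3 to 53.7 (median 46.6) in ABE-treated libraries without overlap between ABE-treated and wild-type bone (0.75, SE 0.081, adjusted p = 1.6e-09). Cryab, alpha-B-crystallin, which muscle makes in large amounts, differed by 2.51 (SE 0.36, adjusted p = 3.1e-07), and by 0.32 (adjusted p = 0.082) with the muscle level held. Because 14 of the 16 were higher, 2 heat shock promoters are shown, chosen because they hold a match. They are those of Hspb1, the small heat shock protein HSP27, and Hsph1, the HSP70 exchange factor HSP110 (RefSeq, GRCm38.p6; Hspb1 at chr5:135887669-135887968, plus strand; Hsph1 at chr5:149636287-149636586, minus strand). Capitals mark GAANNTTC, the inverted repeat of heat shock elements, on either strand.
Hspb1: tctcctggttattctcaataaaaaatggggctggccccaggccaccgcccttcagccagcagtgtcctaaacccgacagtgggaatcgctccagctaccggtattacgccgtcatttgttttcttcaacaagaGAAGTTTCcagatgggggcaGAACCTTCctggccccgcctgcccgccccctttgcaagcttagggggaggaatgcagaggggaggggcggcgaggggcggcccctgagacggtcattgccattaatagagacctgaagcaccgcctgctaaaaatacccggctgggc
Hsph1: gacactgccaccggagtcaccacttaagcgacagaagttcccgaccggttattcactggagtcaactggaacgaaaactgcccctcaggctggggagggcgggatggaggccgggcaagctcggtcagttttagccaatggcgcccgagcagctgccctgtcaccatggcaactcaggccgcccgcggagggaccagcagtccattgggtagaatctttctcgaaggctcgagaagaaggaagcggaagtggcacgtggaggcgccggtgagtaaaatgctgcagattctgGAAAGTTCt
GAANNTTC was present in 9 of 12 heat shock promoters (75%) against 7.95% of all promoters. Whether these sites bear on the differences was not tested. Hspb1 differed from wild-type by 2.21 (SE 0.33, adjusted p = 5.2e-07) and Hsph1 by 0.81 (SE 0.10, adjusted p = 4.9e-08), and with the muscle level held the values were 0.32 and 0.43.

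Several signals that act on bone cells were above wild-type. Tgfb2, a ligand of the TGF-beta family, lay at 0.3403 to 1.42 (median 0.743) scaled TPM in wild-type, 2.45 to 5.45 (median 4.11) in saline-treated and 3.42 to 7.87 (median 5.303) in ABE-treated libraries without overlap between ABE-treated and wild-type bone (2.197, SE 0.14, adjusted p = 2.4e-14). Tgfb1, the ligand stored in bone matrix and made by blood cells too, was lower (-0.53, SE 0.095, adjusted p = 9.3e-06), and was at -0.14 (adjusted p = 0.32) with the muscle level held. Of 13 TGF-beta genes 9 were higher and 2 lower, and 6 higher and 1 lower with the muscle level held. For the lists of this paragraph, 39.5% of all genes were higher and 37.6% lower. With the muscle level held these shares were 18.5% and 14.9%. Of 20 BMP and SMAD genes 15 were higher and 0 lower, and 15 were higher with the muscle level held. Id1, a direct target of BMP signalling, lay at 3.36 to 5.82 (median 4.09) in wild-type and 7.797 to 14.9 (median 10.6) in ABE-treated libraries without overlap (1.26, SE 0.11, adjusted p = 4.7e-11), and its difference from saline-treated bone was 0.068 (95% interval -0.16 to 0.30). Of 16 WNT genes 15 were higher, and 7 were higher with the muscle level held. They include antagonists and receptors alike. Besides Sost, the secreted antagonist Wif1 was higher by 0.87 (SE 0.14, adjusted p = 1.9e-06), and Lrp4, a receptor that presents sclerostin, by 0.57 (SE 0.14, adjusted p = 0.00056). Of 9 genes of the IGF axis 4 were higher and 1 lower, a share near the 39.5% of all genes tested, and 2 higher and 1 lower with the muscle level held. Of 12 ERK feedback genes 8 were higher and 1 lower, and 4 higher and 1 lower with the muscle level held.

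Genes of the nuclear lamina, where progerin acts, were described for themselves. Of 18, 4 were higher and 10 lower than in wild-type (median -0.11), where 39.5% and 37.6% of all genes were. With the muscle level held 2 were higher and 4 lower, where 18.5% and 14.9% of all genes were. Lmnb1, lamin B1, lay at 9.57 to 20.6 (median 15.4) scaled TPM in wild-type, 7.17 to 18.9 (median 14.3) in saline-treated and 3.38 to 16.04 (median 9.44) in ABE-treated libraries (-0.73, SE 0.17, adjusted p = 0.00029), and Lbr, the lamin B receptor, differed by -0.66 (SE 0.16, adjusted p = 0.00036). With the muscle level held their differences were 0.015 and -0.0002. For Lmna itself the value was then -0.049, where it had been 0.23. Ribosomal protein genes were higher than in wild-type for 28 of 45 and lower for 2 (median 0.24), but their median was -0.18 after quantile normalization, so their direction depended on the scaling.

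**Figure D4:**
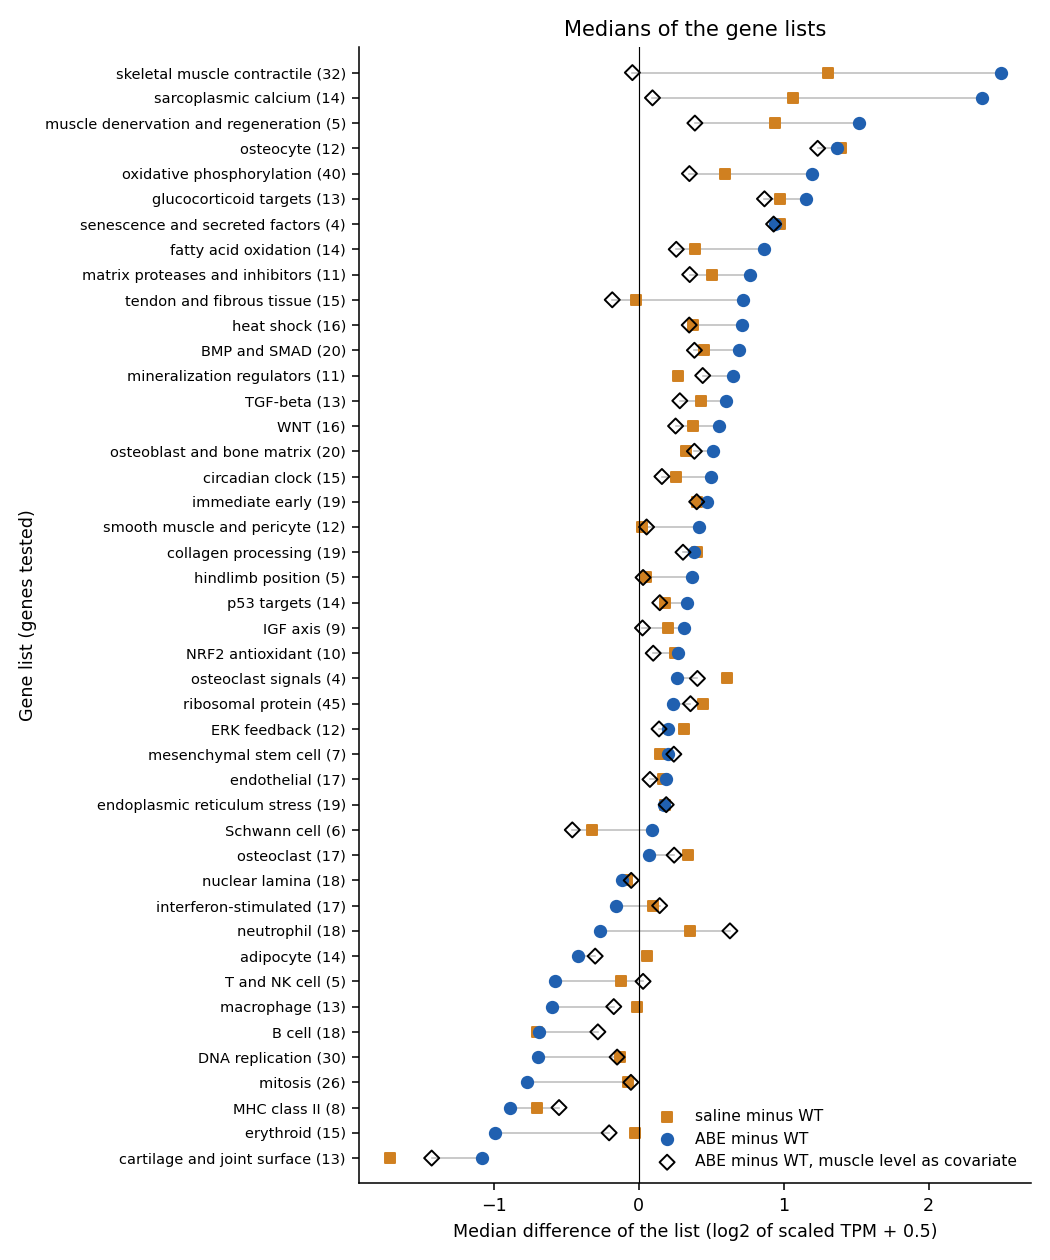
Median log2 difference of each of 44 gene lists (rows, with the number of genes tested) for ABE-treated minus wild-type (blue circles), saline-treated minus wild-type (orange squares) and ABE-treated minus wild-type with the muscle level as a covariate (open diamonds). The osteocyte median stays between 1.23 and 1.396, while the mitosis median moves from -0.77 to -0.054 with the covariate.

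The remaining large rises without overlap were of several kinds. Ankrd2, a stress-responsive protein of the muscle sarcomere (2.82), and Ppp1r3c, a glycogen-targeting subunit of a phosphatase (2.34), were 1.31 and 0.62 with the muscle level held. Ackr3, a scavenging receptor of the chemokine CXCL12, rose by 1.800 and Ccn1, a matricellular protein, by 1.88, and with the muscle level held they were at 1.35 and 1.49. All 4 passed the test in both fits. Ndufs5-ps, a processed pseudogene of 319 bp that can take reads from its parent gene, rose by 3.02 and is uncertain. Among the 15 largest falls, Gm27853, Gm15899, Gm13840 and Mir142hg are genes of 238 to 269 bp, whose TPM are raised by the length correction.

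The difference from wild-type was not the same in both sexes for part of the genes. The difference between males and females in ABE-treated against wild-type bone was called for 705 genes, 342 with a higher value in males (2.58%) and 363 with a lower one (2.73%). Before adjustment, 3000 genes had a p under 0.05 in the same limma test. The number called changed with the libraries used, from 235 without ABE replicate 12 to 1440 without wild-type replicate 10, and it was 1436 without ABE replicate 1. Of the 5 genes with the largest positive values, 4 were slow-twitch muscle genes, and the other was Retnla, a secreted protein of alternatively activated macrophages (1.58, SE 0.47, adjusted p = 0.043). Myh7, slow myosin heavy chain, lay at 2.17 to 9.63 (median 2.66) scaled TPM in wild-type females, 0.00517 to 4.59 (median 0.118) in wild-type males, 0.987 to 8.07 (median 3.69) in ABE-treated females and 0.921 to 34.4 (median 8.19) in ABE-treated males. Wild-type males were low except for replicate 10, and the log2 difference of the differences was 3.41 (SE 0.88, adjusted p = 0.024). Tnnc1, slow and cardiac troponin C, differed by 2.88 (SE 0.78, adjusted p = 0.03), Myl3 by 2.82 (SE 0.74, adjusted p = 0.026) and Tnni1 by 1.84 (SE 0.56, adjusted p = 0.047). The 32 contractile genes as a list had a median difference from wild-type of 3.04 in males and 1.93 in females, and 2 of them passed the test of the sex difference.

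Of the negative values, Ighv9-3, an antibody variable segment, lay at 2.804 to 8.34 (median 6.25) and 6.07 to 61.03 (median 15.98) scaled TPM in wild-type females and males and 3.19 to 15.7 (median 8.71) and 1.55 to 9.69 (median 3.48) in ABE-treated females and males (-2.69, SE 0.69, adjusted p = 0.024). Variable segments differ between mice with the clones present and share reads with related segments, and Igkv1-135 (-1.53) is of the same kind. Olfm4, a granule protein of some neutrophils, lay at 1.41 to 2.74 (median 2.06) and 2.14 to 5.14 (median 3.46) in wild-type females and males and 0.436 to 3.89 (median 2.14) and 0.453 to 1.43 (median 0.846) in ABE-treated females and males (-1.38, SE 0.38, adjusted p = 0.034). Among bone genes, the osteocyte median was 1.71 in males and 1.06 in females, with 2 of 12 genes passing the test of the sex difference, and the osteoblast median was 0.91 and 0.087, with 6 of 20 passing. Genes that fold and modify collagen had medians of 0.64 in males and 0.17 in females, with 2 of 19 passing. Tendon and fibrous tissue genes had 1.10 and 0.39, with 1 of 15 passing.

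**Figure D5:**
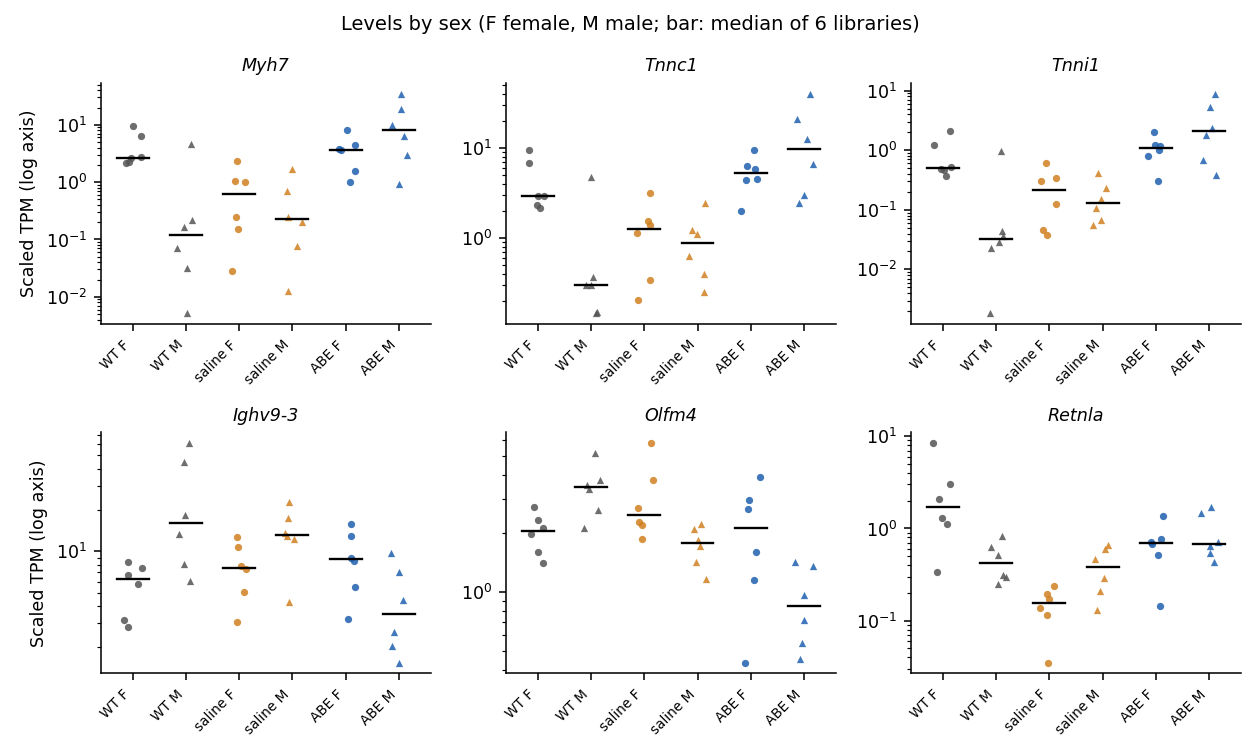
Levels of 6 genes named for the largest sex differences (vertical log axis, scaled TPM) in females (circles) and males (triangles) of the 3 groups; the bar is the median of 6 libraries. Myh7, Tnnc1 and Tnni1 are low in wild-type males except for 1 library, and the medians of Ighv9-3 and Olfm4 are highest in wild-type males.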

How the data were processed

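Poly(A) RNA from the tibiae of 36 mice was sequenced in paired ends, aligned by the authors to GRCm38 with STAR (2.73a per the labels) and counted on GENCODE genes with QoRTs. The authors deposited TPM per gene and library, which divide reads by gene length and by the library's total. How the TPM were made from the counts is not given in the sources used here. Genes of 219 bp or less took 84.7% to 96.6% of the TPM of a library but 0.21% to 1.00% of its reads, and were left out. The remaining 48911 genes were rescaled between libraries by the median ratio over the 22771 genes above 0 in all libraries. Whole reads, and from them the depth per library, were recovered from the TPM and the listed lengths, all values being whole within 0.05 reads.

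The log2(scaled TPM + 0.5) of 13274 genes with a mean of at least 0.5 was fitted in limma 3.58.1 (R 4.3.3) with a variance trend, group and sex over all 36 libraries, and p-values were adjusted by Benjamini-Hochberg with a threshold of 0.05. Fold changes are on this log2 scale, which understates those of low genes. The sex difference was the interaction of sex and group. No set test was made, and 45 gene lists (44 with a gene tested) are described by counts and medians. Some genes are in more than 1 list, so the lists are not independent. The named genes were the 4 most abundant of each list, genes the study's text names, the 15 largest rises and falls without overlap and with a mean of at least 5 scaled TPM in either group, the 5 largest sex differences in either direction, and Lmna. Some genes that this rule names are not reported here. Exceptions are said to have been singled out after their values were seen. The members and lists were chosen with earlier results of these data known. Alternatives were other pseudocounts, filters, scalings, covariates and fits, each sex alone, and each ABE-treated and wild-type library left out in turn. Simulated data had 200 of 13274 genes changed in ABE-treated against wild-type libraries. Of these, 52 of 100 genes changed by 0.5 (log2) and 99 of 100 changed by 1 were recovered, and 11 unchanged genes were called. In the libraries themselves 10240 of 13274 genes (77.1%) were called. Recovery and wrong calls with that many genes differing were not tested. They were also not tested with muscle, neutrophil and erythroid levels varying within groups as in these libraries. The rates above are those of the simulated data alone.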

Additional observations from a re-analysis of the deposited data

Results flagged for a closer look

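The difference between ABE-treated and wild-type bone was itself different in males and females for the 10 genes named by size, each past the test of that difference (limma with Benjamini-Hochberg adjustment). The values are log2 differences in males minus those in females. Slow-twitch muscle genes had the positive values, with Myh7 at 3.41, Tnnc1 at 2.88, Myl3 at 2.82 and Tnni1 at 1.84, and the macrophage product Retnla had 1.58. The negative values were those of the antibody segments Ighv9-3 at -2.69 and Igkv1-135 at -1.53, the neutrophil granule gene Olfm4 at -1.38, the unnamed gene Gm22948 at -1.10 and the pseudogene Rpl31-ps16 at -0.93, whose reads can come from its parent gene. The part of the muscle level in these values was not tested.

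Genes under the length minimum, which entered no comparison, took 1.003% of the reads of ABE replicate 1. The wild-type libraries had 0.21% to 0.34%. The median share was 0.350% in ABE-treated and 0.279% in wild-type libraries, and 6 of the 12 ABE-treated libraries were above the highest wild-type one.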

How the results depend on the processing

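Mepe, Sost, Dmp1, Cdkn1a and Prg4 kept their direction and their call in ABE-treated against wild-type bone under all 41 alternatives run, at 3.29 to 4.61, 3.31 to 4.39, 1.84 to 2.998, 1.47 to 2.30 and -5.97 to -4.68 (log2). The counts moved more. Against 10240 genes called in ABE-treated against wild-type bone, 18536 were called with no filter on low values, 1782 with a mean of at least 5 scaled TPM, 5422 with the study's filter, 4427 with the muscle covariate and 2303 with muscle, neutrophil, B cell and erythroid levels as 4 covariates. The fits with stricter filters tested fewer genes. Leaving out 1 library gave 10046 to 10429. For a difference of at least 2-fold (1169 genes) the counts were 1847 with a pseudocount of 0.1, 449 with a mean of at least 5, 700 with the study's filter, 1873 with genes of every length, 2129 with limma-voom on recovered reads, 172 with the muscle covariate and 97 with 4 covariates, and 1002 to 1327 without 1 library. For the sex difference (705 genes) they were 49 with a mean of at least 5, 441 with the study's filter, 203 with the compared groups alone, 3328 with array weights, 1607 with the muscle covariate and 2999 with 4 covariates, and 235 to 1440 without 1 library. For ABE-treated against saline-treated bone (7546 genes) they were 1596 with a mean of at least 5, 4208 with the study's filter, 3489 in males alone, 637 with the muscle covariate and 705 with 4 covariates, and 6731 to 8224 without 1 library. For saline-treated against wild-type bone (7715 genes) they were 12803 with no filter, 1427 with a mean of at least 5, 3991 with the study's filter, 4097 in the TPM as deposited, 3211 in females alone and 3561 with 4 covariates, and 7357 to 8191 without 1 library. The cause of the other moves was not tested.

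Among the named genes, directions turned as follows in ABE-treated against wild-type bone. With the muscle covariate Acta1 was at -0.17, Atp2a1 at -0.20, Car2 at 0.10, Ccnb2 at 0.074, Fmod at -0.67, Lmna at -0.049, Lmnb1 at 0.015, Myl3 at -0.26 and Olfm4 at 0.15. With 4 covariates Acta1 was at -0.065, Atp2a1 at -0.25, Btg2 at 0.046, Car2 at 0.22, Ccnb2 at 0.11, Cd79a at 0.35, Fmod at -0.48, Lmnb1 at 0.080 and Mki67 at 0.037. Acta1, Atp2a1, Myl3, Car2 and Cd79a belong to lists used as covariates or share their cells. In the TPM as deposited Klf2 was at -0.44, Lmna at -0.31 and Nfkbia at -0.39, after quantile normalization Mmp9 was at -0.41, and in females alone Lmna was at -0.022, Myh7 at -0.20 and Myl3 at -0.33. Runx2 passed the test when any of 7 libraries was left out. No paired analysis was possible because the labels give neither shared replicate numbers nor litters, although the study describes littermates.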
